A study of Mus musculus with 8 samples.

Results

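The small nuclear RNAs (snRNAs) of the major spliceosome, U1, U2, U4, U5 and U6, were examined in mouse sperm together with U7, an snRNA that serves the processing of histone transcripts and not splicing. They were chosen by name, as the rows of the snRNA class of a deposited count table that carry one of these 6 names, out of 12 names in that class and 45090 named features in all. Small RNA had been sequenced from sperm in a series on alcohol exposure that had ended about a month earlier. The labels describe 4 ethanol and 4 control libraries of total RNA, made with Trizol and Qiaseq reagents. They give neither strain, age, dose and route of ethanol, nor the way sperm were collected, nor whether samples came from separate animals, so p-values here measure only the spread between samples.

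The spliceosome cuts introns out of pre-mRNA. U1 recognises the start of an intron, U2 pairs with the branch site inside it, and U4, U5 and U6 then join as 1 particle, in which U4 holds U6 until the catalytic core of U2 and U6 forms and U5 holds the exon ends. Each snRNA works bound to proteins, the Sm ring or, in U6, the LSm ring, and U7 has an Sm-like ring of its own. Mature sperm are regarded as almost silent in transcription and splicing, so their snRNA is usually seen as RNA left from earlier stages or acquired from outside. Small RNA libraries catch fragments of these molecules, and in bulk samples fewer cells of a type and less RNA per cell cannot be told apart.

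Annotated mouse genes of U1, U2 and U7 are printed because the results below turn on how far copies share sequence. They are from GENCODE M21 (GRCm38). Capitals mark the bases of U1 that pair with the 5′ splice site, the U2 bases that pair with the branch site, and the Sm site of U7. Rnu1a1 lies at chr11:87422867-87423030 (+), Rnu1b2 at chr3:96374021-96374185 (+), Rnu2-10 at chr11:101658238-101658428 (+) and Rnu7 at chr6:124741225-124741286 (-).
Rnu1a1: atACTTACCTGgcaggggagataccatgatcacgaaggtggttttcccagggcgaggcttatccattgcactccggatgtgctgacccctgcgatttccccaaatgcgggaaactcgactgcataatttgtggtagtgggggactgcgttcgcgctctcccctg
Rnu1b2: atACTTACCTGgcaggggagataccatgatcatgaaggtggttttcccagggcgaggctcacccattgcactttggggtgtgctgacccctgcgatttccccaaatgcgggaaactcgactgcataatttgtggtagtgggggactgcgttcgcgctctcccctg
Rnu2-10: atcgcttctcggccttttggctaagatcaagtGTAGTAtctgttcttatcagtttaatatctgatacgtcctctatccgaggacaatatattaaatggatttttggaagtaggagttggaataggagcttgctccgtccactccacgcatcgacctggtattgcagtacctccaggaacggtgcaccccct
Rnu7: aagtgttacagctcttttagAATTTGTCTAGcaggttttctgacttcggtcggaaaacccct
Both U1 genes have the same marked bases, and 158 of their 165 aligned columns are identical (95.8%). Every stretch of 30 bases of Rnu1a1, Rnu1b2 and Rnu2-10 also occurs in another of the 1383 snRNA entries of that annotation, against 24.2% of the stretches of Rnu7. A fragment of that length from Rnu1a1, Rnu1b2 or Rnu2-10 therefore cannot be given to 1 gene by its sequence alone. Fragments of U1 and U2 copies not printed here were not compared in this way. The numbered rows of the count table (U1_copy61 and so on) are not tied to these genes, and rows of 1 name were summed unless stated otherwise.

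The deposited table held 3481865 to 6975180 counts in ethanol libraries and 4365887 to 4921827 in control libraries. The features built from it held 3353679 to 6314205 counts in ethanol and 4173236 to 4543220 in control. Library totals and shares of counts refer to these feature counts. Levels are given in CPM, the count of a feature relative to the TMM-scaled library total, not divided by length. Ethanol replicate 2 stood apart: its correlation over all features tested was 0.686 to 0.820 with the other ethanol libraries and 0.470 to 0.600 with controls, against 0.896 to 0.924 among the other ethanol libraries and 0.903 to 0.936 among controls, and results that rest on it are followed by their value without it. Of 16 spermatid and sperm transcripts, which mark the labelled cells, none was at 0 in any library. Of 13515 features tested with edgeR's quasi-likelihood test, 13.6% passed an adjusted p of 0.05 (Benjamini-Hochberg), with 11.9% higher and 1.75% lower in ethanol.

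None of the 6 snRNAs passed that threshold. Their log2 fold changes (ethanol over control) ran from -1.33 for U5 to 0.94 for U1, beside a median of -0.0091 over all features tested. U5 was lower in every ethanol library than in any control library, and it was the only 1 of the 6 whose groups did not overlap. Among all features 6.93% were lower in ethanol without overlap and 21.3% did not overlap in either direction.

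**Figure D1:**
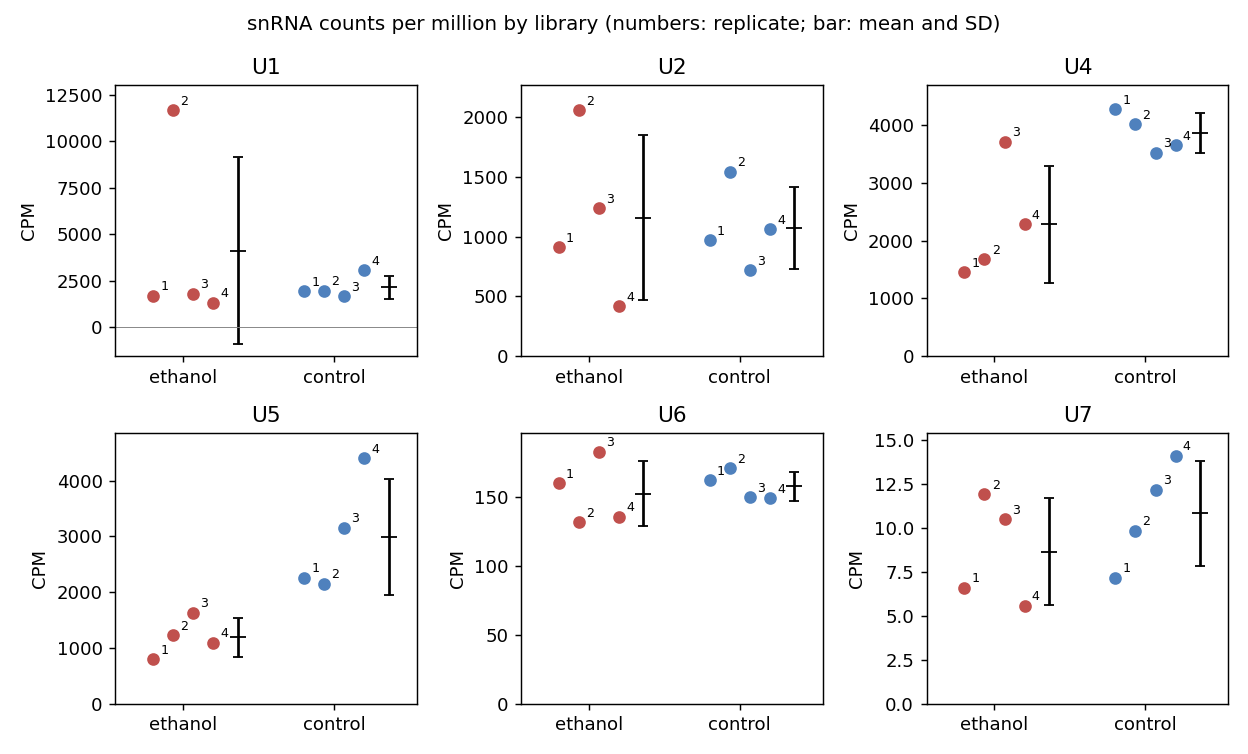
Level (CPM, linear axes that differ between panels) of each snRNA in the 4 ethanol and 4 control libraries; numbers give the replicate, and the bars the mean and SD of each group. The U1 panel is set by ethanol replicate 2 at 11667 CPM, and in the U5 panel all ethanol points (801 to 1631 CPM) lie below all control points (2153 to 4403 CPM).

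U1, the RNA that finds the 5′ splice site, had 1689, 11667, 1812 and 1313 CPM in ethanol replicates 1 to 4, against 1924, 1963, 1680 and 3052 CPM in control replicates 1 to 4. A single ethanol library held the high value, 6.44 times the median of the other 7, and the other 3 ethanol libraries lay within or below the control range. The group means were 4120 ± 5035 CPM in ethanol and 2155 ± 611 CPM in control (SD, n = 4 each). The log2 fold change was 0.94 ± 0.65 (SE) with an adjusted p of 0.322 by edgeR. Without ethanol replicate 2 it was -0.48 ± 0.40, with an adjusted p of 0.456 by the same test, so 1 library set the direction. Over the alternatives that gave an adjusted p, which the DESeq2 Wald test did not for U1, it ran from 0.0846 to 0.778.

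U1 made up 1.69% of the feature counts of ethanol replicate 2 (95% exact binomial interval 1.68 to 1.71%), against 0.137 to 0.247% in the other 7 libraries. Such intervals cover counting error only, and they take every count as a separate read. If a read was counted at several rows, they are too narrow and the share is too high, which the deposited table does not settle. The excess was spread over many U1 rows and was not of 1 size. Rows of 1 name can share reads, so they are not independent. Of the 47 U1 rows with 100 counts or more, 10 held the same counts as another row in every library. Ethanol replicate 2 was the highest library in 43 of the 45 U1 rows with enough counts to test, at 1.16 to 26.5 times the median of the other 7 (median 5.46), and above 10 times in 10 rows. The most abundant row, U1_copy61, had 621, 2290, 588 and 510 counts in ethanol replicates 1 to 4 and 417, 467, 404 and 652 in control replicates 1 to 4. The row with the highest ratio, U1_copy263, chosen after its values were seen, had 35, 648, 28 and 8 counts in ethanol replicates 1 to 4 and 29, 13, 13 and 21 in control replicates 1 to 4. The row U1_copy61 took a smaller share of U1 in ethanol replicate 2 (4.04%) than elsewhere (5.28 to 6.57%). The rows too rare to test did so too, at 0.661% of U1 in ethanol replicate 2 and 0.864 to 1.37% elsewhere.

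That library was also the highest of the 8 in 2 of 3 lists of markers of other cells, the epididymal and the blood list. The summed level of 16 epididymal epithelium transcripts (the duct in which sperm mature) was 2965, 13603, 975 and 1455 CPM in ethanol replicates 1 to 4, against 439, 561, 869 and 732 CPM in control replicates 1 to 4. Crisp1, a secreted epididymal protein, made up most of it, and 7 of the 8 epididymal genes tested rose, beside 23.8% of all mRNA exon features; Cst11, Cst12 and Defb29 had 0 to 6 counts in every library. Blood and immune transcripts (13 genes) summed to 411, 2655, 181 and 303 CPM in ethanol replicates 1 to 4, against 110, 115, 94.0 and 130 CPM in control replicates 1 to 4; Cd52, which epididymal cells also make, accounted for the high sums, and Hba-a1 and Hba-a2 fell. Spermatid and sperm transcripts summed to 488, 276, 774 and 599 CPM in ethanol replicates 1 to 4, against 849, 718, 844 and 901 CPM in control replicates 1 to 4, with 0 of 16 past the threshold. Muscle and stroma transcripts (10 genes) summed to 30.6, 63.5, 57.3 and 90.6 CPM in ethanol replicates 1 to 4, against 87.1, 158, 80.5 and 60.7 CPM in control replicates 1 to 4, with none past the threshold. Without ethanol replicate 2 the log2 fold change of Crisp1 was 1.48 and that of Cd52 1.96, both past the threshold, and without any 1 control neither passed, nor did Hba-a1 and Hba-a2. What part other cells had in the U1 level was not tested.

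**Figure D2:**
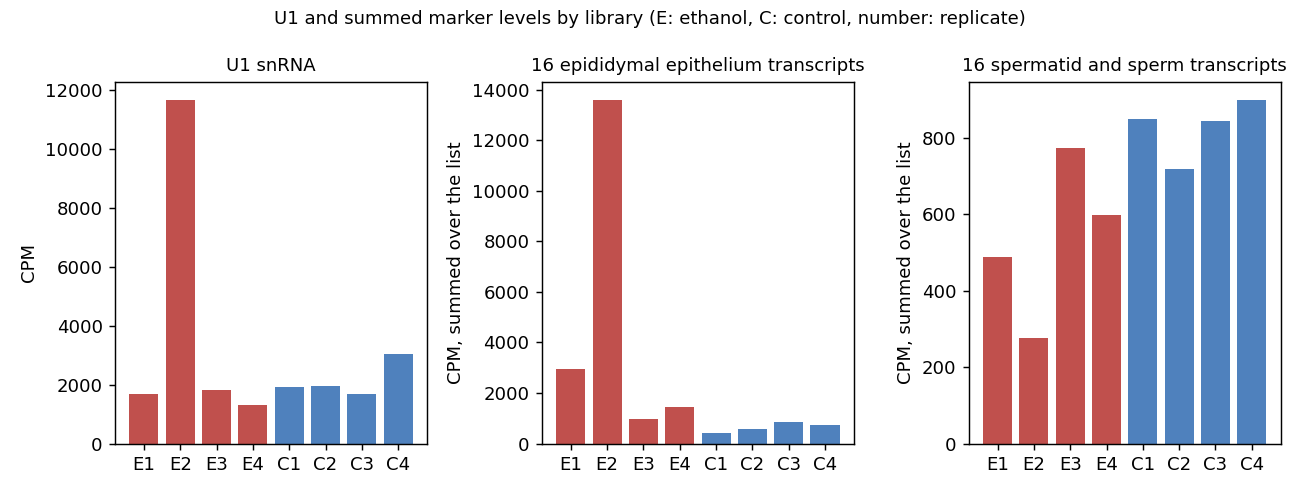
U1 (left) and the summed CPM of 16 epididymal epithelium transcripts (middle) and 16 spermatid and sperm transcripts (right) in each library, E for ethanol and C for control, on linear axes from 0. Library E2 has the highest U1 (11667 CPM) and epididymal bar (13603 CPM) and the lowest sperm bar (276 CPM).

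Some other noncoding RNAs were high in ethanol replicate 2, and others were not. U3, which guides cleavage of pre-rRNA, was at 3.70 times the median of the other 7 libraries, the Y RNA HY1 at 4.18 times, the RNase P RNA Rpph1 at 3.19 times, the signal recognition particle RNA 7SL at 2.29 times and Rn7sk, which restrains transcription elongation, at 1.92 times. Rmrp, the RNA of RNase MRP, was at 0.466 times and the pre-rRNA processing RNA U17 at 0.408 times. U1, at 6.44 times, thus had a higher ratio than each of these.

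U2, which pairs with the branch site, had 912, 2059, 1239 and 417 CPM in ethanol replicates 1 to 4, against 969, 1544, 717 and 1061 CPM in control replicates 1 to 4. The highest and the lowest library were both ethanol, and the groups overlapped throughout. Its log2 fold change was 0.11 ± 0.51 with an adjusted p of 0.904 by edgeR, and -0.39 ± 0.42 without ethanol replicate 2. The 4 most abundant U2 rows, U2_copy155, U2_copy156, U2_copy157 and U2_copy158, held identical counts in every library (542, 1044, 536 and 214 in ethanol replicates 1 to 4; 326, 574, 247 and 331 in control replicates 1 to 4). Counts at such rows are not independent measurements. The deposited table does not say how a read that matches several copies was placed.

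U4, which keeps U6 inactive until the spliceosome is activated, had 1452, 1678, 3715 and 2279 CPM in ethanol replicates 1 to 4, against 4283, 4018, 3526 and 3652 CPM in control replicates 1 to 4. In ethanol, 3 libraries lay below every control, and replicate 3 lay within the control range. The means were 2281 ± 1018 CPM in ethanol and 3870 ± 346 CPM in control (SD, n = 4 each). The log2 fold change of -0.76 ± 0.44 had an adjusted p of 0.235 by edgeR. Leaving out ethanol replicate 3 gave -1.21 and an adjusted p of 0.0486, the lowest of the range 0.0486 to 0.640 over all alternatives to the test. Almost all of U4 came from U4_copy70 and U4_copy71, which held 98.2% of its counts in nearly equal parts, 5035 and 4798 counts in ethanol replicate 1, for example, and 8361 and 8144 in control replicate 1. U4_copy75, the next row, had 67 to 199 counts in ethanol libraries and 42 to 84 in control libraries, with a log2 fold change of 0.20.

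U5, which aligns the ends of the exons to be joined, had 801, 1232, 1631 and 1096 CPM in ethanol replicates 1 to 4, against 2258, 2153, 3151 and 4403 CPM in control replicates 1 to 4. The highest ethanol library lay below the lowest control library. Marker sums moved with the groups as well: the epididymal sum given above was higher in every ethanol library than in any control, and all 16 sperm transcripts had negative log2 fold changes, with a median of -0.53. Their part in the U5 level was not tested. The means were 1190 ± 345 CPM in ethanol and 2991 ± 1042 CPM in control (SD, n = 4 each). The log2 fold change of -1.33 ± 0.45 had a p of 0.00946 before and 0.0588 after adjustment by edgeR, so U5 missed the threshold. Over 17 alternatives it ran from -1.71 to -1.04, lower in ethanol in each, with adjusted p-values from 0.00615 (DESeq2) to 0.159 (no filter on low counts), and 5 of the 17 passed. Those 5 were the DESeq2 Wald test, the largest U5 row in place of the sum, leaving out ethanol replicate 2 or 3, and ethanol replicates 1 and 2 alone, under which 6.11, 1.77, 2.65, 5.65 and 3.73% of all features passed as lower in ethanol. Without ethanol replicate 2 the log2 fold change was -1.41 ± 0.44, with an adjusted p of 0.0400.

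When the rows were tested singly, 96 rows of the 6 names had enough counts. In that fit, 13.6% of 13617 features passed in either direction, 1.73% of them lower in ethanol. All 8 tested U5 rows had negative log2 fold changes (-1.70 to -0.11), and in 6 of the 8 the groups did not overlap. Over the 96 rows of the 6 names, 9 were lower and 1 higher in ethanol without overlap. Among all features, with rows of 1 name summed, 6.93% were lower without overlap and 21.3% did not overlap in either direction. Reads can be shared between rows of 1 name, so the rows are not independent. U5_copy76, the largest, fell, with 1615, 1280, 2568 and 1975 counts in ethanol replicates 1 to 4 and 2532, 2575, 4497 and 6740 in control replicates 1 to 4, in libraries of unequal depth. Its log2 fold change was -1.70 ± 0.49 with an adjusted p of 0.0371 by edgeR. Without each library in turn the adjusted p ran from 0.00704 to 0.109, and the call was lost without ethanol replicate 1 or 4 or any 1 control. U5_copy10 and U5_copy75, the next rows by level, had -1.23 and -1.31, with adjusted p-values of 0.068 and 0.062 by the same test.

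The part of U5 that U5_copy76 made up also varied. It held 29.0, 21.4, 29.0 and 30.5% of U5 counts in ethanol replicates 1 to 4, against 28.7, 30.2, 34.8 and 41.6% in control replicates 1 to 4. The groups overlapped, and control replicate 4, the library highest in U5, had the highest share. The 4 largest rows together held 91.4% of U5 counts. No pair of the 8 U5 rows with 100 counts or more had the same counts in every library, unlike 9 of 24 such rows of U2.

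**Figure D3:**
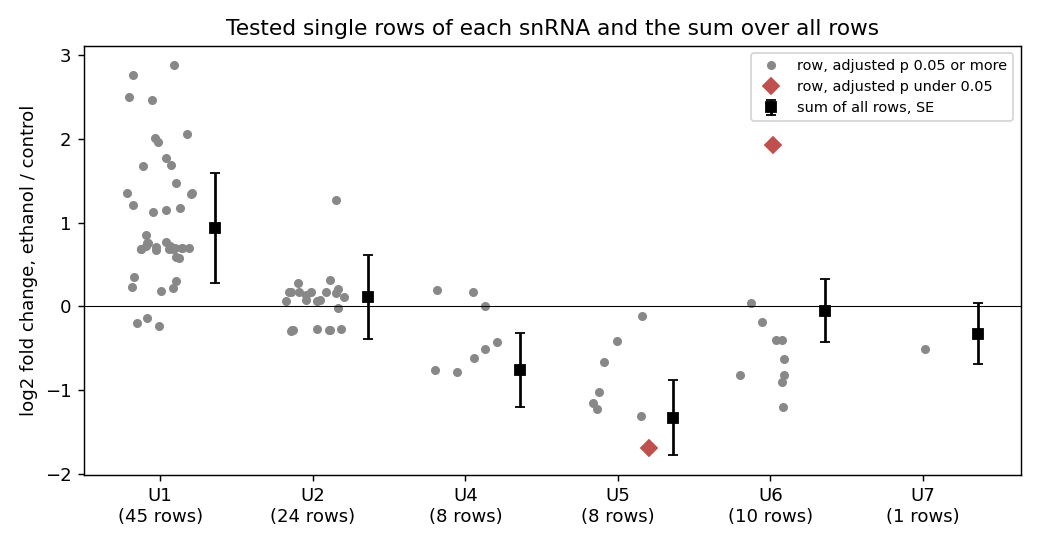
Log2 fold change (ethanol over control) of each snRNA row with enough counts to test (points) and of the sum of all rows of a name (squares, with SE); diamonds are rows with an adjusted p under 0.05. All 8 U5 rows lie below 0, 42 of 45 U1 rows lie above 0, and the sum of U6 lies above most of its tested rows.

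U6, which replaces U1 at the 5′ splice site, had the narrowest range of the 6 relative to its level. It had 160, 132, 183 and 136 CPM in ethanol replicates 1 to 4, against 162, 171, 150 and 149 CPM in control replicates 1 to 4. The groups overlapped, and the log2 fold change of -0.05 ± 0.38 had an adjusted p of 0.940 by edgeR. Its 399 rows, the most of any of the 6 names, were mostly rare: 10 had enough counts to test. The tested rows summed to 37.5, 18.7, 44.2 and 33.5 CPM in ethanol replicates 1 to 4, against 58.6, 51.8, 43.7 and 50.04 CPM in control replicates 1 to 4. The remaining rows summed to 123, 113, 139 and 102 CPM in ethanol replicates 1 to 4, against 104, 119, 106 and 99.3 CPM in control replicates 1 to 4. Rows too low to test thus held 75.3 to 85.8% of U6 counts in ethanol and 63.9 to 70.8% in control, without overlap, a split made by the filter on counts and given with no test.

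Of the 10 tested U6 rows, 8 had negative log2 fold changes and U6_copy1181 rose. It had 18, 11, 15 and 14 counts in ethanol replicates 1 to 4 and 2, 3, 4 and 1 in control replicates 1 to 4, a log2 fold change of 1.93 ± 0.46 and an adjusted p of 0.0288 by edgeR. The call rests on few reads, and without each library in turn its adjusted p ran from 0.0328 to 0.113. It was lost without ethanol replicate 4 or any 1 control. The 3 most abundant U6 rows, U6_copy193, U6_copy1297 and U6_copy953, had log2 fold changes of -0.82, -0.82 and -0.90 and did not pass. Ethanol replicate 2, the highest library in nearly all U1 rows, was the lowest of the 8 in 8 of the 10 U6 rows.

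U7, which pairs with histone pre-mRNA, was rare, with 46, 58, 57 and 33 counts in ethanol replicates 1 to 4 and 28, 39, 50 and 52 in control replicates 1 to 4. This came to 6.61, 11.9, 10.5 and 5.58 CPM in ethanol, against 7.17, 9.86, 12.2 and 14.1 CPM in control. The groups overlapped. The log2 fold change was -0.33 ± 0.37 with an adjusted p of 0.543 by edgeR. Of its 3 rows U7_copy38 held 90.4% of the counts and had a log2 fold change of -0.51; in ethanol replicate 2 it held 65.5%, as a second row reached 20 counts there, against 0 to 4 counts elsewhere.

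Together the 6 names made up 0.554, 2.43, 0.748 and 0.545% of counts in ethanol replicates 1 to 4, against 0.892, 0.934, 0.896 and 0.998% in control replicates 1 to 4. The means were 1.07 ± 0.913% in ethanol and 0.930 ± 0.0492% in control (SD, n = 4 each), so the ethanol libraries differed far more among themselves. The difference of 0.140 percentage points became -0.314 without ethanol replicate 2. In 3 of 4 ethanol libraries the share lay below every control library.

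The make-up of these counts differed between libraries. U1 was 33.6, 69.5, 21.1 and 25.0% of them in ethanol replicates 1 to 4, against 20.04, 19.9, 18.2 and 24.8% in control replicates 1 to 4. U4 was 28.9, 10.001, 43.2 and 43.4% in ethanol, against 44.6, 40.8, 38.2 and 29.6% in control. U5 was 15.95, 7.34, 19.0 and 20.9% in ethanol, against 23.5, 21.8, 34.1 and 35.7% in control. Every ethanol share of U5 lay below every control share. For U1, 3 of the 4 ethanol shares lay above every control share, that of ethanol replicate 4 by little, and the shares of U4 overlapped widely.

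**Figure D4:**
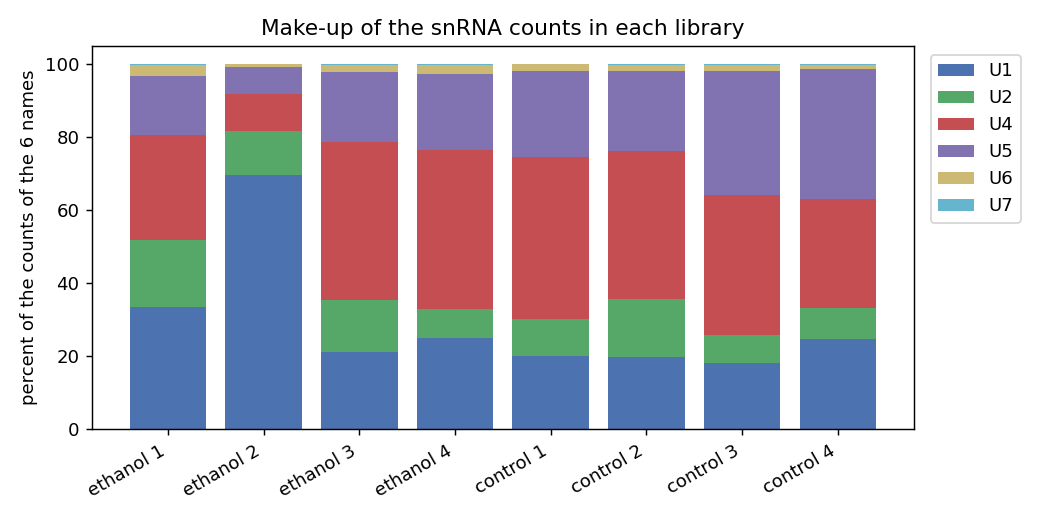
Share of the counts of the 6 snRNAs (percent, stacked to 100) that each name held in each library. U1 fills 69.5% of ethanol replicate 2, and the U5 segment is 7.34 to 20.9% in ethanol libraries and 21.8 to 35.7% in control libraries.

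Ratios within a library do not depend on the scaling between libraries, and 7 were set side by side. Each was tested two-sided over the 70 possible label assignments, an exact permutation test, with p-values adjusted over the 7. The smallest p that 4 against 4 samples allow is 0.0286. The log2 ratio of U5 to U7 was 6.92, 6.69, 7.28 and 7.62 in ethanol replicates 1 to 4, against 8.30, 7.77, 8.01 and 8.28 in control replicates 1 to 4. It was lower in all 4 ethanol libraries than in any control, with a mean difference of -0.96 (exact permutation p = 0.0286, adjusted p = 0.1).

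U4 and U6 work as a base-paired couple, and their ratio was the other without overlap. The log2 ratio of U4 to U6 was 3.18, 3.67, 4.34 and 4.07 in ethanol replicates 1 to 4, against 4.72, 4.55, 4.56 and 4.61 in control replicates 1 to 4. The controls lay within a narrow range and every ethanol library below it, for a difference of -0.80 (exact permutation p = 0.0286, adjusted p = 0.1). This did not hold for the largest row of each name, where the difference was 0.09. The ratios of U1, U2, U4 and U6 to U7 and of U1 to U2 differed by -0.51 to 0.67, with overlapping groups and adjusted p-values of 0.543 each. Without ethanol replicate 2 the differences were 0.13, 0.12, -0.21, 0.53 and 0.0087 in that order. None of the 7 passed after adjustment. U5 to U7 and U4 to U6 already had the smallest p these samples allow, and adjustment over the 7 took it to 0.1. Given the p-values of the other ratios, a pass was out of their reach, and its absence does not show that the groups were alike.

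**Figure D5:**
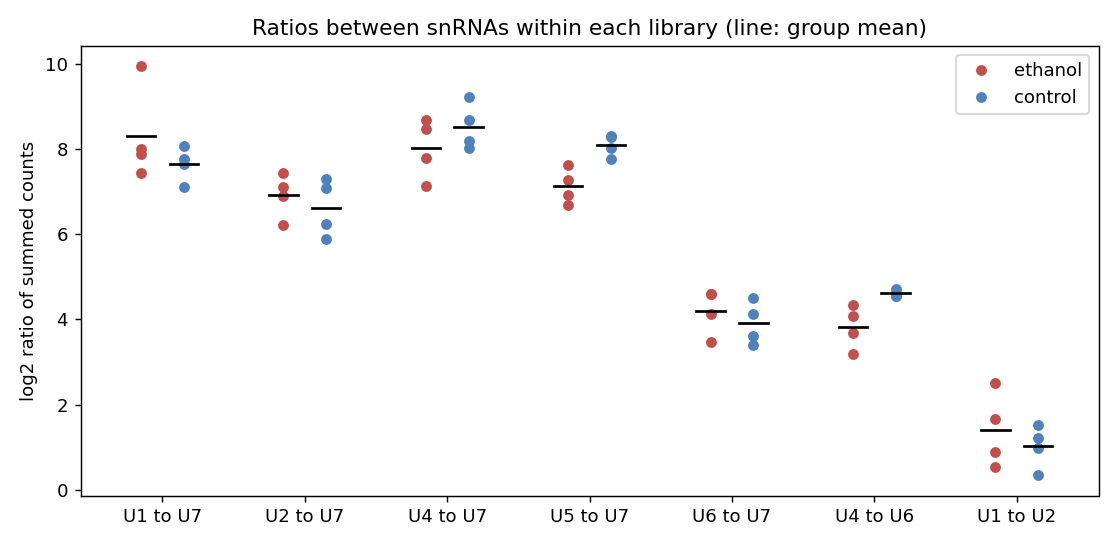
Log2 ratio of the summed counts of 2 snRNAs within each library, ethanol points left of control points, with the group mean as a line. For U5 to U7 and U4 to U6 all ethanol points lie below all control points; the 5 other ratios overlap.

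The proteins and processing factors of the snRNAs were read from the exon counts of their mRNAs, which in these libraries are fragments of few reads. In 11 lists of 112 genes, 60 genes were tested; 11 rose (18.3%) and 0 fell. Among all mRNA exon features tested, 23.8% rose and 0.153% fell, so the lists did not exceed that background. Positive log2 fold changes were found for 57 of the 60, with a median of 1.09, beside 0.88 over all mRNA exon features. No gene of the lists passed when any 1 control was left out or with limma-voom, settings in which few of all features passed (0.0199, 0.0199, 0.0463 and 0.0673% without control replicates 1 to 4, and 0.0592% with limma-voom). Without ethanol replicate 2, 6 genes of the lists passed, all higher in ethanol, beside 13.9% of all mRNA exon features.

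Of the proteins that sit on the snRNAs, Snrpb, a core protein of the Sm ring, had 40, 90, 22 and 42 counts in ethanol replicates 1 to 4 and 1, 2, 11 and 8 in control replicates 1 to 4, and rose (2.62 ± 0.63, adjusted p = 0.0287 by edgeR). Lsm6, of the U6 ring, rose by 1.96 ± 0.49. Sf3b5, a U2 protein of the SF3b complex, rose by 2.14 ± 0.54. The U5 list held 3 of the 11: the helicase Snrnp200, which unwinds U4 from U6, the GTPase Eftud2 and the bridging protein Prpf6 rose by 1.67 ± 0.51, 1.88 ± 0.55 and 1.80 ± 0.51 on the log2 scale. Without ethanol replicate 2 these were 0.75, 0.97 and 0.92, and none of the 3 passed. For Snrpb, Lsm6 and Sf3b5 the values without it were 1.92, 1.36 and 1.53, and each passed. U5 itself had a negative log2 fold change, as given above. In the U1 list 0 of 4 tested genes passed; Luc7l and Luc7l2, its most abundant, had log2 fold changes of 0.36 and 0.62. In the list of U4 and U6 proteins 0 of 6 passed, with Sart1, which recruits the particle of U4, U5 and U6 to the spliceosome, at -0.22 and Snu13, which binds U4, at 1.21. Without ethanol replicate 2, Luc7l, Luc7l2, Sart1 and Snu13 were at 0.29, 0.33, -0.30 and 0.37.

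Of the factors that make and mature snRNAs, Ssb (the La protein, which binds the end of new U6) rose by 2.27 ± 0.61, Usb1, which trims the U6 end, by 2.50 ± 0.61, and Mettl16, which methylates U6, by 1.52 ± 0.48. Usb1 had 13 to 19 counts in ethanol libraries and 0 to 5 in control libraries. Strap, of the SMN complex that loads the Sm ring, rose by 1.56 ± 0.47, and Cpsf3, the nuclease of histone and other mRNA ends, by 2.26 ± 0.58. Of these 5, Ssb, Usb1 and Cpsf3 passed without ethanol replicate 2, at 1.29, 2.45 and 1.49, and Mettl16 and Strap, at 1.25 and 1.09, did not. Mettl16, at an adjusted p of 0.0497 by edgeR, lost its call in all 8 fits without 1 library (0.0528 to 0.146), and Strap in 6 of them. In the list of snRNA transcription factors 0 of 5 passed, with Pou2f1 at -0.15 and Ice1 at 1.25. In the Integrator complex, which cuts the ends of new snRNAs, 0 of 7 passed, with Ints1 at 1.13 and Ints7 at 0.11. Without ethanol replicate 2, Pou2f1, Ice1, Ints1 and Ints7 were at 0.027, 0.75, 0.32 and -0.14. Ethanol replicate 2 had the highest summed level of the 8 libraries in 10 of the 11 lists, the exception being snRNA transcription, and the part that other cells had in these levels was not tested.

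The minor spliceosome, which removes a rare class of introns, has its own counterparts of U1 and U2. Rnu11, the counterpart of U1, had 6.89, 21.6, 13.9998 and 9.98 CPM in ethanol replicates 1 to 4, against 19.97, 21.7, 19.5 and 17.7 CPM in control replicates 1 to 4. Rnu12, the counterpart of U2, had 231, 407, 274 and 165 CPM in ethanol replicates 1 to 4, against 355, 379, 259 and 406 CPM in control replicates 1 to 4. Their log2 fold changes were -0.59 ± 0.38 and -0.38 ± 0.42, with adjusted p-values of 0.283 and 0.547 by edgeR. Rnu11 passed without ethanol replicate 2, at -1.004 ± 0.30 (adjusted p = 0.0329, the lowest of the leave-one-out values, which reached 0.515), and Rnu12, at -0.71, did not. In ethanol replicate 2, Rnu11 lay at 1.22 times the median of the other 7 libraries, where U1 lay at 6.44 times.

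Of 13 noncoding RNAs outside splicing that were set beside the snRNAs, 3 fell: Rmrp, U17 and U13, with log2 fold changes of -1.62 ± 0.41, -1.53 ± 0.48 and -1.38 ± 0.38 and adjusted p-values of 0.0296, 0.0482 and 0.0328 by edgeR. Among all features tested 1.75% fell. The 3 calls held without ethanol replicate 2 and were lost without any 1 control, with leave-one-out adjusted p-values up to 0.0984, 0.138 and 0.0949. Of the fits without 1 library, 5, 6 and 5 lost the call of Rmrp, U17 and U13. These included fits without an ethanol library other than replicate 2. The value of U5, -1.33 ± 0.45, lay close to these, and whether it differed from them was not tested.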

How the data were processed

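Small RNA of 4 ethanol and 4 control sperm samples was compared, grouped and numbered as in their titles. The authors deposited raw counts in 1 table of 1078961 rows, with a column for each of the 8 libraries, per the file headers. Per the labels' protocols, Trizol served for extraction and Qiaseq for the libraries. The aligner, the treatment of multi-mapped reads and of molecular identifiers, the counting rule and the genome build are not given in the sources used here. Reads from near-identical copies can therefore be shared or split between rows.

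Rows of 1 name and type were summed, except in piRNA clusters. There only the row with the most counts of each name was kept and the others were left out. This gave 45090 features, and the snRNA class had 784 rows. The main test was that of edgeR 4.0.16 under R 4.3.3 (TMM, filterByExpr with minimum count 10, robust quasi-likelihood fit on group, Benjamini-Hochberg adjustment over all 13515 features tested, threshold 0.05). A second fit kept the snRNA rows single. Ratios used summed counts and the exact permutation test in Python 3.11.15 with scipy 1.17.1. Shares have exact binomial intervals (Clopper-Pearson). The fit and the permutation test were tested on simulated data. Alternatives were DESeq2 1.42.0 (its size factors, its Wald test), library totals, limma 3.58.1 voom, no count filter, a replicate block, the largest row for each name, another pseudocount, other denominators of the share and each library left out.

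The members, gene lists and marker lists were chosen with earlier results of these data known. Named were all 6 snRNAs, of each the 3 rows with the highest mean CPM and any row past the threshold, and of each list up to 4 genes past the threshold or else the 2 most abundant. All 112 listed genes of the 11 pathway lists were found by symbol or RefSeq synonym. Sequences of some of the snRNAs are not reported here.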

Additional observations from a re-analysis of the deposited data

Results flagged for a closer look

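Ethanol replicate 2 lay far from the other 3 ethanol libraries in 3 of 40 groups of 4 values examined, where chance flags about 1 in 20 groups. U1 was at 11667 CPM in it, against 1313 to 1812 CPM in the other ethanol libraries. U1 took 1.69% of its counts, and the 6 snRNAs together took 2.43%, against 0.545 to 0.748% in the other ethanol libraries. The 3 values share the U1 counts of that library and are not independent.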

How the results depend on the processing

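Of all features, 1841 passed in the reported fit, 1200 with DESeq2 size factors, 3144 with the DESeq2 Wald test, 8 with limma-voom, 3451 without the count filter and 3 to 3575 with 1 library left out (3 to 10 without 1 control). Library totals moved the median log2 fold change of all features to 0.24, and U6 to 0.21, Sart1 to 0.054, Pou2f1 to 0.036 and Dcn to 0.40. U2 was -0.053 and U3 -0.057 with limma-voom, and Dcn, at -0.01 as reported, was 0.0075, 0.0100 and 0.0064 with DESeq2 size factors, the Wald test and no filter. U5 passed with the Wald test (-1.34) and with its largest row (-1.70). With the largest row of each name the ratio of U6 to U7 was -0.44, that of U4 to U6 0.090 and the difference in share -0.0994 points; without miRNA in the total it was -0.0160. Without the filter 12 of 737 single rows passed, against 2 of 96 in the reported fit. Among all features 7.65% passed without the filter, with rows of 1 name summed, and 13.6% in the reported fit of single rows.

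With 1 library left out, the log2 fold change was -0.48 to 1.20 for U1, -0.39 to 0.33 for U2, -1.21 to -0.59 for U4 and -1.64 to -1.17 for U5. Single rows that passed numbered 0 to 9. The 9 were of 100 tested without ethanol replicate 3, where 24.1% of all features passed with rows of 1 name summed. The share differed by -0.314 to 0.315 points. The log2 fold change was -0.51 to 0.93 for U1_copy51, -0.45 to 0.83 for U1_copy61, -0.52 to 0.92 for U1_copy63, -0.48 to 0.40 for U2_copy155, U2_copy156 and U2_copy157, -0.53 to 0.38 for U4_copy75, -0.65 to 0.027 for Pou2f1, -0.14 to 0.24 for Ints7, -0.77 to 0.24 for Dcn, -0.66 to 0.58 for U3, -0.20 to 0.54 for 7SL and -0.11 to 0.39 for BC1.

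Ethanol replicates 1 and 2 carry sample codes of another style than 3 and 4, and a split by it was added after seeing the data. With replicates 1 and 2 only, 3320 features passed, U5 passed (-1.71), Dcn was 0.18 and BC1 -0.14. With replicates 3 and 4 only, 816 passed, and U1 was -0.49, U2 -0.43, U3 -0.70, 7SL -0.013, Pou2f1 0.076 and Ints7 -0.016.

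Deviations of samples of equal replicate number had r from -0.13 to 0.34, within the range of samples of unequal number (-0.40 to 0.38). The labels do not say whether samples of equal number share more than the number, and these few correlations cannot settle it. With the replicate block 3298 features passed, U2 was -0.043, U3 -0.080 and the 3 U2 rows -0.015; none of the 6 snRNAs passed, and for the ratios the smallest p the block allows is 0.125. The causes of these shifts were not tested. Depth limits U7 and most U6 rows.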
